A study of Mus musculus with 2 samples.

Results

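Oligodendrocyte precursors were described in 2 droplet libraries of single-barcode RNA, 1 from Shank3-/- mice given fluconazole, an antifungal azole that blocks a sterol demethylase, and 1 from Shank3-/- mice given the vehicle (labelled MOCK). Both agents were taken in drinking water for 2 weeks, so every mouse carried the deletion of Shank3, a scaffold gene of excitatory synapses, and no wild-type mouse was part of the comparison. The labels call the tissue brain and the design text names the prefrontal cortex, and neither the age, strain or sex of the mice nor the number of mice behind a library is given in the sources used here. Single cells and nuclei are both named in the design text, but only nuclei in the extraction protocol, so each droplet is called a barcode here.

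Precursors were chosen by marker transcripts. Kept barcodes had 500 or more genes, and mitochondrial genes held no more than 5% of their unique molecular identifiers (UMIs). It counted as a precursor when at least 4 of 7 genes (Pdgfra, Cspg4, Vcan, C1ql1, Lhfpl3, Tnr and Sox6) had a UMI, Pdgfra or Cspg4 among them. UMIs of Slc17a7, Pecam1 and Cx3cr1 together could not pass 1, those of Mog and Mag 1, those of Dcn, Col1a1 and Col1a2 1, and those of Gad1 and Gad2 2. By this rule 79 fluconazole and 117 vehicle barcodes were precursors, 196 of the 24541 kept barcodes (0.799%) and of the 27561 deposited ones. None of the 196 barcode sequences occurred as a precursor in both libraries.

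Oligodendrocyte precursors are the dividing glial cells from which myelinating oligodendrocytes arise. The growth factor receptor encoded by Pdgfra and the proteoglycan encoded by Cspg4 (NG2) mark them, they carry glutamate and GABA receptors and receive synapses from neurons, and on differentiation they pass through a committed stage marked by Gpr17 before myelin genes are switched on. Cholesterol is a main lipid of the myelin that their progeny make.

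The precursors were shallow. They held 386070 UMIs in the fluconazole library and 452957 in the vehicle library, with a median of 3577 UMIs and 1876 genes per fluconazole precursor, against 2642 UMIs and 1533 genes per vehicle precursor. The depth of single precursors ran from 970 to 21310 UMIs in the fluconazole library and from 955 to 15651 UMIs in the vehicle library. All kept barcodes had a median of 5410.5 UMIs in the fluconazole library and 4422 in the vehicle library, so fluconazole barcodes were the deeper ones in both sets. With 1 library per treatment there is no replicate and no test between treatments. Every interval below is at 95%, covers counting error only, and treats each UMI as an independent draw.

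Rule genes are given as a description, since they chose the barcodes. All 7 markers had a UMI in 12 fluconazole and 17 vehicle precursors, 6 in 23 and 29, 5 in 31 and 45, and exactly 4 in 13 and 26. Pdgfra was found in 79.7% of fluconazole and 73.5% of vehicle precursors, and Cspg4 without Pdgfra carried 16 and 31 barcodes into the class. Tnr and Lhfpl3, a tenascin and a tetraspan membrane protein gene, were each in 98.7% of fluconazole and 98.3% of vehicle precursors. C1ql1, a secreted C1q-like protein gene, was in 21.5% and 20.5%. Microglia chosen by a like rule, which should lack these transcripts, had a Pdgfra UMI in 0.575% of fluconazole and 0.538% of vehicle barcodes and an Lhfpl3 UMI in 4.64% and 6.88%, at median depths of 6003.5 and 4691 UMIs.

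At the edge of the rule, the 20 fluconazole and 28 vehicle barcodes that had exactly 3 markers and met every other condition stayed outside. Ptprz1, a proteoglycan phosphatase gene that the rule does not use, was in 40.0% and 28.6% of those, against 76.9% and 92.3% of the barcodes with exactly 4 markers. Another 56 fluconazole and 89 vehicle barcodes met the marker condition but passed a limit on another cell type. A further 19 and 41 had at least 4 markers without Pdgfra or Cspg4, and Ptprz1 was in 84.2% and 73.2% of these.

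Genes of the lineage that the rule did not use were found in the same barcodes. Of 8 such genes (Olig1, Olig2, Sox10, Ptprz1, Megf11, Cacng4, Neu4 and Xylt1), a list made after the levels had been seen, at least 3 had a UMI in 70 of 79 fluconazole precursors (88.6%) and 110 of 117 vehicle precursors (94.0%). Sox10, the transcription factor gene shared by the whole oligodendrocyte lineage, was in 58.2% of fluconazole precursors (46.6 to 69.2) and 46.2% of vehicle precursors (36.9 to 55.6), against 1.07% and 1.44% of microglia. Olig1, Olig2 or Sox10 was found in 64.6% and 58.1%. Since the 8 genes were picked from these levels, and Ptprz1 is as high in astrocytes, their shares describe the barcodes and are no test of the label. One of the fluconazole precursors had none of the 8.

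A subset also carried transcripts of other cell types. A barcode was set apart when at least 4 of 7 markers of another class had a UMI, or when over 1% of its UMIs came from 6 pan-neuronal genes or from haemoglobin, a definition chosen after the data were seen. This held for 20 fluconazole precursors (25.3%) and 28 vehicle precursors (23.9%). They were deeper, with a median of 7390 UMIs in the fluconazole library and 6405 in the vehicle library, against 3058 and 2288 UMIs in the other precursors, and they held 42.1% and 43.4% of all precursor UMIs. A count of markers with a UMI is met more easily by deep barcodes, so the definition itself favours them. Microglial markers accounted for 6 and 10 of them, pan-neuronal genes for 8 and 9, mural markers for 4 and 3, and astrocyte markers for 3 and 4. Scrublet, a doublet caller, marked 4 fluconazole and 1 vehicle precursor. List medians and most of the genes singled out below are also given for the 59 fluconazole and 89 vehicle precursors without such signs.

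**Figure D1:**
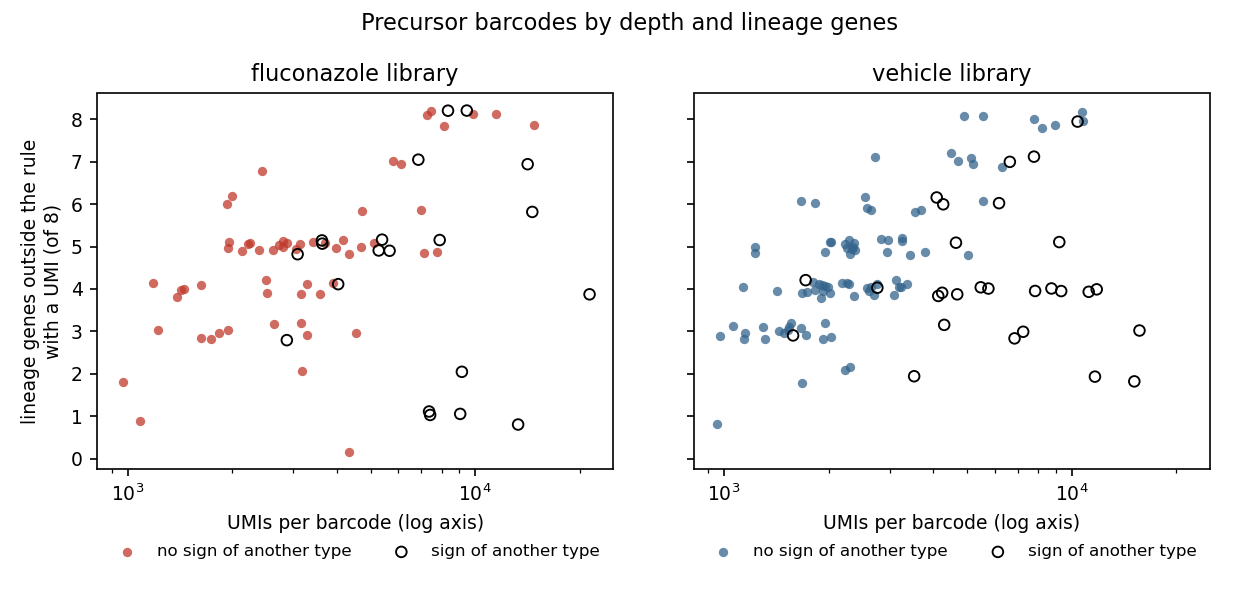
Each point is 1 precursor barcode, with its UMIs on a log axis against the number of 8 lineage genes outside the rule that had a UMI (shifted slightly up or down to part the points), fluconazole on the left and vehicle on the right. Open circles, 20 fluconazole and 28 vehicle barcodes, carried signs of another cell type and lie mostly at the deep end.

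The marker lists of other classes showed where those UMIs lay. Mural markers summed to 759 CPM (UMIs per 1000000 UMIs of the class) in fluconazole precursors and 470.2 CPM in vehicle precursors, and to 76.0 and 105 CPM without the set-apart barcodes. Endothelial markers summed to 381 and 625 CPM (295 and 351 CPM without), astrocyte markers to 661 and 912 CPM (778 and 784 CPM without), and microglial markers to 342 and 393 CPM (299.6 and 343 CPM without). The glutamatergic markers, led by Rorb and Cux2, stood at 378 and 402 CPM, with 0 fluconazole and 4 vehicle UMIs of Slc17a7, which the rule limits. The GABAergic markers, at 1616 and 1245 CPM, consisted almost wholly of Adarb2, with 606 and 545 UMIs, while Lhx6 and Slc32a1 had 1 to 2 UMIs. Neuroblast markers stood at 142 and 236 CPM, fibroblast markers at 7.77 and 4.42 CPM, and the choroid plexus markers Ttr, Folr1 and Kl had no UMI in either library. Haemoglobin was 42 UMIs in the fluconazole library and 1227 in the vehicle library, of which 93.3% lay in 1 barcode, and contractile mural genes were 429 and 131 UMIs, of which 75.5% of the fluconazole ones lay in 1 barcode.

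Precursors made up a similar small share of both libraries. They were 0.713% of kept fluconazole barcodes (exact binomial interval 0.565 to 0.888) and 0.869% of kept vehicle barcodes (0.719 to 1.04). The ratio of fluconazole to vehicle was 0.821, and its interval, 0.618 to 1.09, includes 1. Against the oligodendrocyte lineage, which adds mature oligodendrocytes, the shares were 10.6% in the fluconazole library and 13.5% in the vehicle library, and against all neural barcodes 3.21% and 4.15%. With every kept barcode thinned to 1500 UMIs, which left out 994 fluconazole and 1504 vehicle barcodes, the rule found 0.546% and 0.719%. Over these and 5 other settings the ratio ran from 0.759 to 0.882, always below 1 and always with an interval that includes 1.

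Genes highest in precursors outside the rule were of several kinds. Of 541 genes with at least 100 precursor UMIs in each library and no part in the rule, 32 (5.91%) were at least 2-fold above every other class in both libraries. The other classes were mature oligodendrocytes, astrocytes, glutamatergic and GABAergic neurons, microglia and endothelial cells, each chosen by a like marker rule. Chst9, a sulfotransferase gene for N-acetylgalactosamine, stood furthest apart, with 357 CPM in fluconazole precursors and 291 CPM in vehicle precursors, against 28.6 and 19.6 CPM in astrocytes, the next class. Xylt1, whose enzyme starts the sugar chains of proteoglycans, had 2142 and 2038 CPM, against 348 and 332 CPM in astrocytes. Chst11, which sulfates chondroitin, had 653 and 618 CPM, against 169.6 and 153 CPM in astrocytes. Xylt1 and Chst11 act on proteoglycan sugar chains, and Cspg4, Vcan and Ptprz1 encode proteoglycan core proteins.

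Membrane and channel genes were among them too. Megf11, a transmembrane protein gene with EGF-like repeats, had 471 CPM in fluconazole precursors and 532 CPM in vehicle precursors, against 54.6 and 40.8 CPM in glutamatergic neurons, the next class. Cacng4, an auxiliary subunit of AMPA receptors, had 518 and 477 CPM, against 81.5 and 80.3 CPM in GABAergic neurons. Dscam, a cell adhesion gene, had 2852 and 2802 CPM, against 628 and 618 CPM in glutamatergic neurons. In each of these the gap to the next class was wider than the gap between the libraries. Adam12, a metalloprotease gene, had 355 and 294 CPM, against 28.5 and 34.7 CPM in GABAergic neurons. Kcnh8, a potassium channel gene, had 324 and 258 CPM, against 47.2 and 57.8 CPM in the same neurons. The rest of the 20 genes that stood furthest apart included Dpyd (pyrimidine breakdown), Epn2 (an endocytosis adaptor), Kcnip3 (a potassium channel partner), Zfp462, Abtb2, Pcdh11x, Usp24 and Slc35f1, with the lower of their 2 ratios to the next class between 2.96 for Kcnip3 and 5.11 for Dpyd. Ptprz1 itself was not among them, since astrocytes had 1970 and 1850 CPM beside 2101 and 1996 CPM in precursors.

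**Figure D2:**
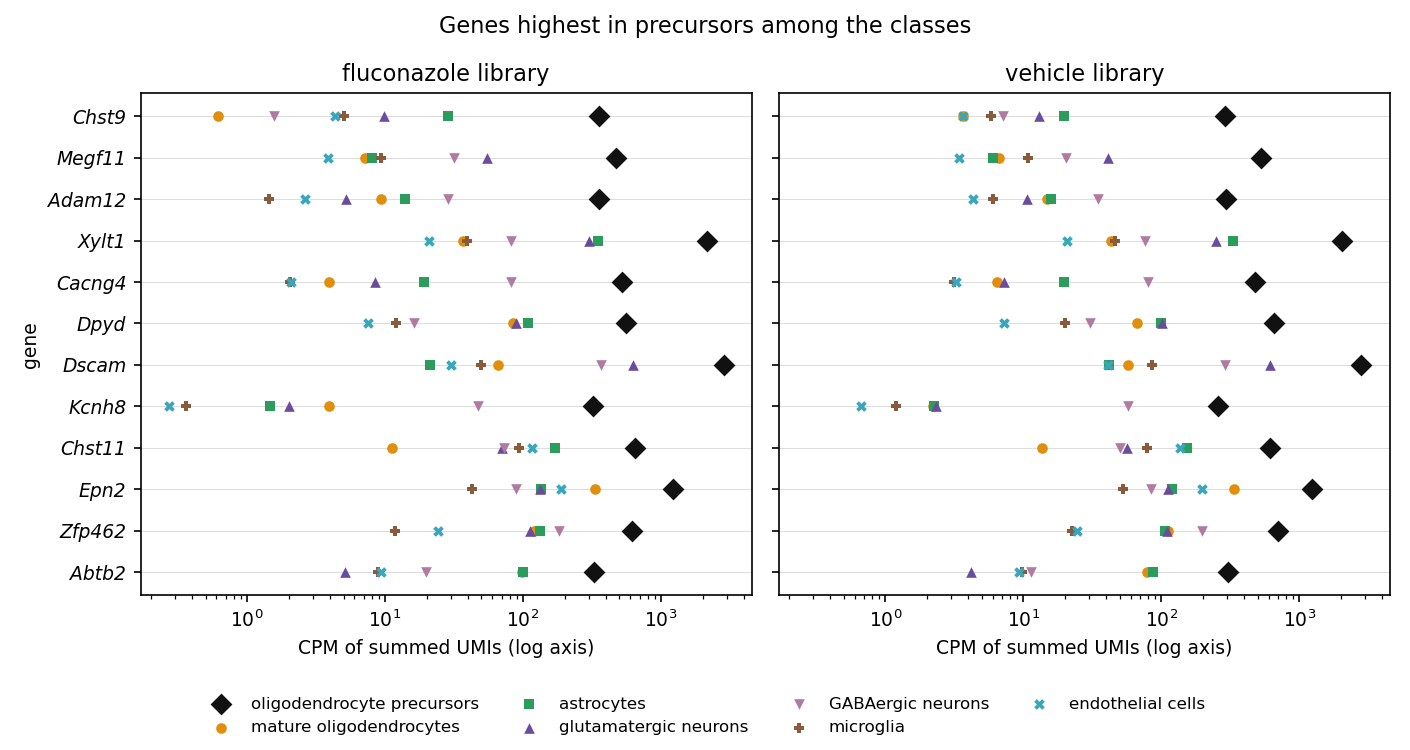
Each row is a gene outside the rule, and each symbol the CPM of its summed UMIs in 1 class on a log axis, fluconazole library on the left and vehicle library on the right. The black diamonds of precursors lie to the right of all other classes for the 12 genes in both libraries, and the order of the classes below them is much alike in both.

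Across genes, most log2 ratios were small. Of 2917 genes that had 60 or more precursor UMIs in the libraries together, 50 (1.71%) were at least 2-fold apart, 27 higher (0.926%) and 23 lower (0.788%) in the fluconazole library. The median log2 ratio of fluconazole over vehicle CPM over those genes was 0.01. Without the set-apart barcodes 19 of 1498 genes (1.27%) were 2-fold apart, 5 higher (0.334%) and 14 lower (0.935%). At 20 UMIs, the minimum used for members of gene lists, 440 of 7207 genes (6.11%) were 2-fold apart, 193 higher (2.68%) and 247 lower (3.43%), and the median log2 ratio over all of them was -0.0040. Without the set-apart barcodes 303 of 4716 genes (6.42%) were 2-fold apart at that minimum, 148 higher (3.14%) and 155 lower (3.29%). Rrad, a small GTPase gene, is not in these counts: it had 40 UMIs in fluconazole precursors, 39 of them in 1 barcode, and none in vehicle precursors (named after its values were seen).

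Tmem267, a gene of a transmembrane protein, had the lowest log2 ratio among the ranked genes, which leave out haemoglobin genes with over 90% of their vehicle UMIs in 1 barcode. It had 11 UMIs in 8 fluconazole precursors and 238 UMIs in 67 vehicle precursors, or 28.5 and 525 CPM, a log2 ratio of -4.20 (-5.23 to -3.34). Without the set-apart barcodes it was -3.33 (-4.43 to -2.40). The gap was not particular to precursors: the log2 ratio was -6.26 in glutamatergic neurons, -5.63 in GABAergic neurons, -3.68 in astrocytes, -3.47 in mature oligodendrocytes, -2.48 in microglia and -2.13 in endothelial cells. Rtl4, a retrotransposon-derived gene, had 95 UMIs in 37 fluconazole precursors and 240 UMIs in 81 vehicle precursors, 246 and 529.9 CPM, a log2 ratio of -1.11 (-1.46 to -0.76), and likewise -1.17 without the set-apart barcodes. Rtl4 was also lower in fluconazole astrocytes (-1.16), microglia (-1.17), endothelial cells (-1.20) and mature oligodendrocytes (-0.84), while it stood at -0.19 in glutamatergic neurons and 0.47 in GABAergic neurons. Both genes thus differed between the libraries outside the precursors too.

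Mt1, Tef and Sptlc2 were lower in fluconazole precursors and nearer to 0 in the 6 other classes. Mt1, a metallothionein gene, had 28 UMIs in 17 fluconazole precursors and 85 UMIs in 41 vehicle precursors, a log2 ratio of -1.37 (-2.04 to -0.74), against values between -0.37 in GABAergic neurons and 0.09 in astrocytes and in mature oligodendrocytes. Tef, a clock output transcription factor gene, had 16 UMIs in 16 fluconazole precursors and 47 UMIs in 41 vehicle precursors, a log2 ratio of -1.32 (-2.24 to -0.48), against values between -0.08 in glutamatergic neurons and 0.54 in endothelial cells. Sptlc2, a subunit of the enzyme that starts sphingolipid synthesis, had 19 UMIs in 13 fluconazole precursors and 48 UMIs in 32 vehicle precursors, a log2 ratio of -1.11 (-1.96 to -0.31), against values between -0.40 in astrocytes and 0.09 in glutamatergic neurons. All 3 kept their direction without the set-apart barcodes (-1.60, -1.45 and -1.30). The difference between precursors and another class was not tested, since there is no replicate. Mt1, Tef and Sptlc2 were taken from the low end of a ranking made with these same counts. Values nearer to 0 in classes that did not choose them are thus no sign of a trait of precursors.

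The rest of the 12 lowest genes lay at a log2 ratio of -0.98 or below. Zbtb11, a zinc finger gene, was at -1.19 (-1.26 without the set-apart barcodes) and Ggnbp2 at -0.98 (-1.04 without). Nucks1, a chromatin protein gene, was at -1.17 (-0.94 without), Hint1 at -1.13 (-0.70 without) and Clstn2, a calsyntenin of synapses, at -1.07 (-0.69 without). Lrp4, the agrin receptor gene, had 20 fluconazole and 47 vehicle UMIs (-0.72 without). Without those barcodes the intervals of these last 4 genes include 0. Arap2, a regulator of small GTPases, was at -1.38 (-2.14 to -0.66) with all barcodes and at -0.46 (-1.54 to 0.58) without the set-apart ones. Gene models were headed by ENSMUSG00000095041, with 27 fluconazole and 190 vehicle UMIs and a log2 ratio of -2.58, and -2.42 without the set-apart barcodes.

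The 12 highest genes lay between 0.93 and 1.31. Zzz3, a chromatin reader of a histone acetyltransferase complex, had 53 UMIs in 37 fluconazole precursors and 25 UMIs in 22 vehicle precursors, a log2 ratio of 1.31 (0.60 to 2.06), against values between -0.15 and 0.15 in the 6 other classes. Usp33, a deubiquitinase gene, had 56 and 30 UMIs, a log2 ratio of 1.13 (0.47 to 1.82). Ryk, a Wnt receptor gene, had 47 and 26 UMIs, a log2 ratio of 1.08 (0.36 to 1.83). Stxbp4, with 47 and 24 UMIs, Mamld1 (1.09), Pcbp3 (1.05), Sncaip (1.03), Ddx24 (1.01), Synrg (1.01), Adcy5 (0.99), Rbm27 (0.98) and Nufip2 (0.93) completed the list. Without the set-apart barcodes the 12 values ran from 0.36 for Adcy5 to 1.43 for Usp33, and the intervals of Ddx24, Synrg, Adcy5, Rbm27 and Nufip2 include 0. The ranking was over 2596 genes, and its ends were chosen by the same counts that give the intervals. Values of Zzz3 nearer to 0 in classes that did not choose it are thus no sign of a trait of precursors.

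**Figure D3:**
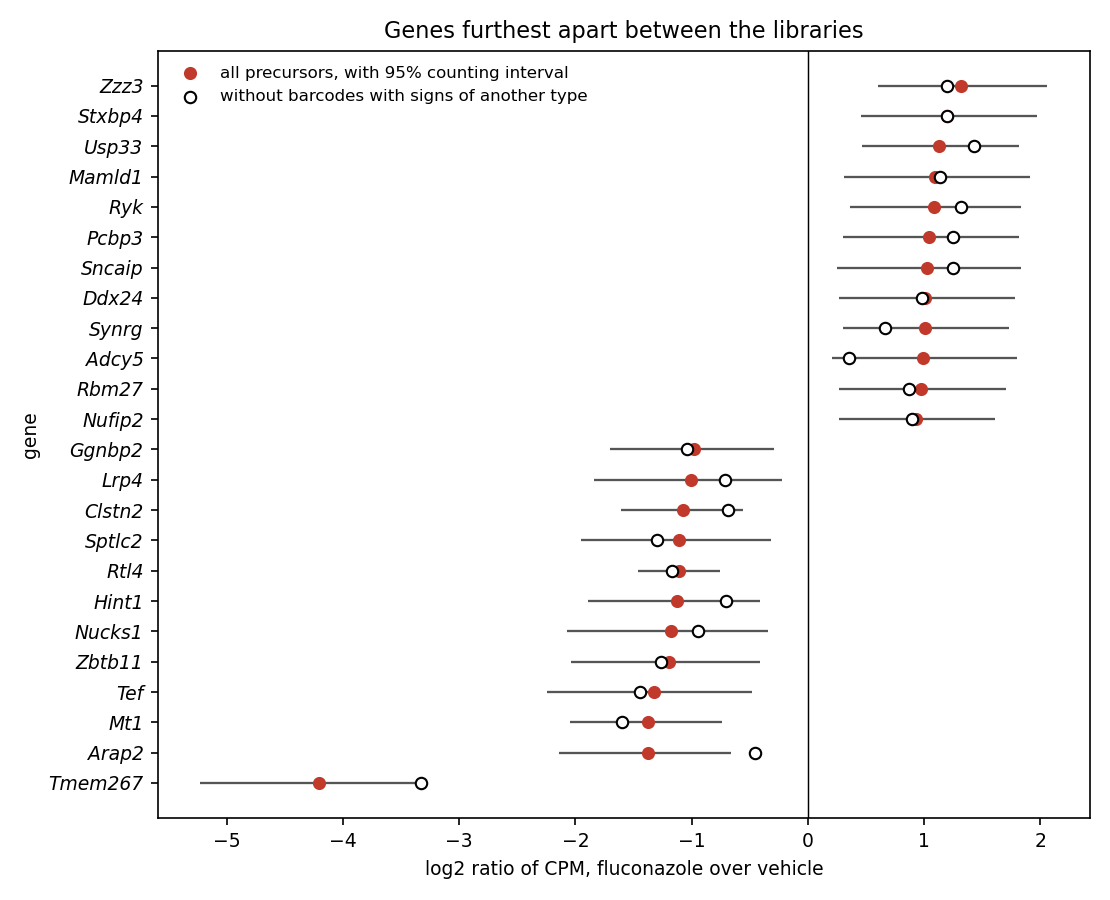
Rows are the 12 genes with the highest and the 12 with the lowest log2 ratio of CPM, fluconazole over vehicle, in precursors. Filled points with lines are all precursors with the 95% counting interval, open circles the precursors without signs of another type, and Tmem267 at -4.20 lies apart from the other 23.

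Genes with over 20% of the higher library's UMIs in 1 barcode, or with UMIs in under 15 of its barcodes, were kept out of that ranking. Acta2 and Tagln, contractile genes of mural cells, had 175 and 100 UMIs in fluconazole precursors, 85.7% and 89.0% of them in 1 barcode, against 45 and 33 UMIs in vehicle precursors. Hmgb2 and Stmn1, genes of dividing cells, had 62 and 95 UMIs in vehicle precursors, 75.8% and 72.6% of them in 1 barcode, against 9 and 17 UMIs in fluconazole precursors. That vehicle barcode had UMIs of 12 of 15 mitotic genes, among them 7 of Top2a and 4 of Mki67, in 11183 UMIs. At least 3 mitotic genes had a UMI in 1 of 79 fluconazole precursors (1.27%) and 3 of 117 vehicle precursors (2.56%). The fluconazole one, with 5394 UMIs, and the vehicle ones with 6634 and 11183 UMIs were among the set-apart barcodes. The barcode with 12 mitotic genes had 1 UMI of Cspg4 and no UMI of Pdgfra. Barcodes with mitotic genes were therefore too few in both libraries for a comparison of dividing precursors. Of 33 cell cycle genes 6 had 20 UMIs (1 higher, 5 lower, median -0.13, and 0.20 over the 5 measured without the set-apart barcodes). Cdk4, a kinase of the first growth phase, was lowest at -1.09 (-2.48 to 0.15), and Ccnd1, its cyclin partner, stood at -0.05.

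Receptor signalling that keeps precursors dividing had members on both sides of 0. Of 23 genes downstream of or beside the PDGF and FGF receptors, 17 were measured, 8 higher and 9 lower, with a median of -0.07 (-0.02 without the set-apart barcodes). Fgfr2, an FGF receptor gene, had 190 and 242 UMIs and a log2 ratio of -0.12 (-0.40 to 0.16). Feedback inhibitors of the pathway went both ways, with Spry4 at 0.66 (-0.22 to 1.57) and Spry1 at -0.45 (-1.33 to 0.40). No member was 2-fold apart.

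Transcription factors of the lineage had more members below 0 than above. Of 22 genes 15 were measured, 3 higher and 12 lower, with a median of -0.15 (-0.21 without the set-apart barcodes, -0.0018 after thinning to 1500 UMIs and -0.04 in barcodes with a Pdgfra UMI), and 1 was 2-fold apart. Their summed log2 ratio was -0.06 (-0.14 to 0.01), which includes 0. Hes5, a Notch target that holds precursors immature, had 9 fluconazole and 24 vehicle UMIs, a log2 ratio of -1.18 (-2.47 to -0.03). Olig2, which specifies the lineage, was at -0.45 with 48 and 77 UMIs, Olig1 at -0.17 (-0.48 to 0.15), and Sox10 at 0.36 (-0.08 to 0.81). Sox5 (-0.08), Tcf4 (-0.06) and Zeb1 (0.04), the members with most UMIs, lay near 0.

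Notch, BMP and Wnt genes were mixed, with 24 of 35 measured, 11 higher, 13 lower and a median of -0.07 (-0.24 without the set-apart barcodes). The 3 members at least 2-fold lower were Bmpr1b, a BMP receptor gene, at -1.86 with 8 and 34 UMIs, Lef1, a Wnt transcription factor gene, at -1.23 with 8 and 22 UMIs, and Hes5. Lef1 turned to 1.42 without the set-apart barcodes. Id1, a BMP target, was highest at 0.97 (0.15 to 1.82) with 35 and 21 UMIs.

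Genes of the committed stage were read as a count per barcode. At least 3 of 8 genes listed for that stage (Gpr17, Bmp4, Enpp6, Bcas1, Tmem163, Tcf7l2, Itpr2 and Neu4) had a UMI in 43 of 79 fluconazole precursors, 54.4% (42.8 to 65.7), and in 56 of 117 vehicle precursors, 47.9% (38.5 to 57.3). Thinned to 1500 UMIs, 18 of 72 fluconazole and 22 of 104 vehicle precursors had 3 of them. Bcas1 was in 64.6% and 57.3% of precursors, against 2.19% and 2.27% of microglia, and Gpr17 in 25.3% and 16.2%, against 0% and 0.170%. Mature oligodendrocytes had more Bcas1, 758 and 679 CPM against 464 and 435 CPM in precursors, and more Enpp6, 207 and 211 CPM against 18.1 and 19.9 CPM. Gpr17 was lower there, at 6.35 and 3.24 CPM. Tcf7l2 and Itpr2 were in 54.1% and 76.9% of fluconazole microglia. Neither those 2 nor Bcas1 and Enpp6 therefore set the stage apart here, and the count is not a share of committed cells. Barcodes with 3 or more of the 8 genes also held more Pdgfra, 674 CPM against 333 CPM in the rest of the fluconazole precursors and 532 against 378 CPM in the vehicle library, and more Cspg4, 322 against 173 CPM and 321 against 223 CPM. They were deeper, with a median of 4160 fluconazole and 3528 vehicle UMIs, against 2796.5 and 2257 UMIs in the rest.

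Of the 15 genes of the committed-stage list 12 were measured, 8 higher and 4 lower, median 0.07 (-0.07 without the set-apart barcodes). Tmem163, a zinc transporter gene, stood apart from the others: it had 39 UMIs in 22 fluconazole precursors and 89 UMIs in 52 vehicle precursors, a log2 ratio of -0.96 (-1.54 to -0.40), and -0.62 (-1.27 to 0.01) without the set-apart barcodes. Gpr17 had 90.7 and 90.5 CPM, Bcas1 464 and 435 CPM. Of 15 myelin genes outside the rule 9 were measured, 5 higher and 4 lower, median 0.07 (0.20 without). Mbp, the myelin basic protein gene, was at 0.50 (-0.25 to 1.26).

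Proteoglycan and matrix genes lay near 0 between the libraries. Of 21 genes 16 were measured, 8 higher and 8 lower, median 0.03 (0.06 without), with all values between -0.33 and 0.25 and summed levels of 13650 and 13677 CPM. Ptprz1 was at 0.07 (-0.06 to 0.21), Xylt1 at 0.07 (-0.07 to 0.21), Cspg5, a transmembrane chondroitin proteoglycan gene, at -0.05 (-0.27 to 0.17), and Bcan, the brevican gene, lowest at -0.33 (-0.78 to 0.12). Ncam1, an adhesion gene, was highest at 0.25 (0.05 to 0.46).

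Glutamate receptor genes lay on both sides of 0, with 21 of 26 measured, 11 higher, 10 lower and a median of 0.06 (0.04 without). Grm5, a metabotropic receptor gene, had 405 UMIs in 64 fluconazole precursors and 328 UMIs in 72 vehicle precursors, a log2 ratio of 0.53 (0.32 to 0.75), and 0.47 (0.15 to 0.78) without the set-apart barcodes. Gria1, an AMPA receptor subunit gene, changed sign with those barcodes: 149 fluconazole and 106 vehicle UMIs gave 0.72 (0.35 to 1.09), of which 15 and 34 UMIs were left without them, at -0.98 (-1.97 to -0.07). Grin2a, an NMDA receptor subunit gene, was at -0.78 with 71 and 143 UMIs, of which 9 and 8 were left without the set-apart barcodes. Most UMIs of Gria1 and Grin2a thus lay in barcodes with signs of another type. Gria2 (-0.15), Gria4 (0.19) and Cacng4 (0.12) lay near 0.

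GABA receptor genes were 14 of 15 measured, 6 higher and 8 lower with a median of -0.04, and 9 higher and 2 lower with a median of 0.28 without the set-apart barcodes. Gabbr2, a subunit of the metabotropic GABA receptor, was at 0.56 (0.05 to 1.09) and Gabrb1, an ionotropic subunit, at -0.50 (-0.81 to -0.20), which became 0.01 without the set-apart barcodes. Voltage-gated channel genes were 29 of 34 measured, 16 higher, 13 lower, median 0.06 (0.07 without). Kcnd2, a potassium channel gene, was at 0.31 (0.21 to 0.42) with 1407 and 1327 UMIs, and Kcnj16, an inward rectifier, lowest at -1.13 (-2.63 to 0.20) with 7 and 18 UMIs.

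Synaptic adhesion and scaffold genes were 27 of 29 measured, 12 higher, 15 lower, median -0.03 (-0.06 without). Shank3 had 15 fluconazole and 18 vehicle UMIs in precursors. Both libraries carry the deletion and the 3′ tags need not lie in the deleted part, so these UMIs check no label. Nrxn3, a presynaptic adhesion gene, was at 0.26 (0.16 to 0.37) with 1413 and 1380 UMIs. Homer1, a scaffold of metabotropic glutamate receptors, was at 0.67 with 73 and 54 UMIs, and at 0.96 (0.12 to 1.84) without the set-apart barcodes. Homer2 (1.45, with 14 and 6 UMIs) and Dlg4 (1.02, with 26 and 15 UMIs) were the 2 members 2-fold apart.

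The study's title names lipid rafts and the IGF1 receptor, and fluconazole acts on sterol synthesis, so these lists were read next. Cholesterol synthesis was hardly measurable in precursors, with 9 of 22 genes at 20 UMIs. Of these 1 was higher and 8 lower, with a median of -0.41, and their sum over the whole list was 469 CPM in the fluconazole library and 603 CPM in the vehicle library, a log2 ratio of -0.36 (-0.64 to -0.09). Cyp51, the sterol demethylase that azoles of this kind block in fungi, had 10 and 18 UMIs, a log2 ratio of -0.62 (-1.90 to 0.57). Fdps was lowest at -1.09 (-2.74 to 0.36) and Hmgcs1, the enzyme gene at the start of the pathway, the only one higher at 0.41 (-0.47 to 1.31). The counting interval of every single member includes 0. Without the set-apart barcodes 4 genes were measured, with a median of -0.04, and with the mean over barcodes of their own CPM the median was 0.00218. The same list summed to a log2 ratio of -0.28 in GABAergic neurons, -0.20 in mature oligodendrocytes, -0.19 in glutamatergic neurons and -0.08 in microglia. It summed to 0.02 in astrocytes and 0.04 in endothelial cells.

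Sterol uptake and transport genes were 16 of 24 measured, 6 higher, 10 lower, median -0.13 (-0.14 without). Apoe, the lipid carrier gene, was at -0.31 (-0.54 to -0.09) with 282 and 411 UMIs. It had 730 and 907 CPM in precursors, against 7485 and 8507 CPM in astrocytes, where its log2 ratio was -0.18. That ratio was -0.09 in microglia, -0.05 in GABAergic neurons, 0.11 in glutamatergic neurons, 0.36 in mature oligodendrocytes and 0.38 in endothelial cells. Whether RNA from other cells had a part was not tested. Soat1, which stores cholesterol as esters, was lowest at -1.23 (-2.61 to -0.01) with 8 and 22 UMIs. Lipid raft and sphingolipid genes were 20 of 28 measured, 13 higher, 7 lower, median 0.23, which became -0.03 with 5 higher and 7 lower without the set-apart barcodes. Sptlc2, described above, was the 1 member 2-fold apart, and its partner subunit gene Sptlc1 stood at 0.49 (-0.58 to 1.59). Cav1, the caveolin gene, was at -0.12 (-0.99 to 0.74), Flot1 at 0.65 (-0.73 to 2.07) and Flot2 at -0.63 (-1.84 to 0.50). Apart from Sptlc2, the counting intervals of the measured members, 19 in number, include 0.

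Igf1r, the IGF1 receptor gene, had 97 UMIs in 43 fluconazole precursors and 120 UMIs in 53 vehicle precursors, 251 and 265 CPM, a log2 ratio of -0.08 (-0.48 to 0.32). The list from insulin and IGF1 receptors to mTOR was 26 of 39 measured, 14 higher and 12 lower, median 0.06 (0.11 without the set-apart barcodes), with sums of 3106 and 3113 CPM. Insr (0.07) and Mtor (0.06) lay near 0. Igf2r was highest at 1.06 (-0.20 to 2.42) with 16 and 9 UMIs, and Eif4e, the cap-binding factor gene, lowest at -0.69 with 28 and 53 UMIs.

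Immediate early genes, the fast transcription response of many cells, had the lowest list median but 1. Of 24 genes 19 were measured, 4 higher and 15 lower, with a median log2 ratio of -0.39 beside -0.0040 over all genes at 20 UMIs, and 1 of them, Nr4a2 with 15 and 8 UMIs, was 2-fold apart. Their sum was 3888 CPM in fluconazole precursors and 5583 CPM in vehicle precursors, a log2 ratio of -0.52 (-0.62 to -0.43). Fos, the best known of them, had 246 UMIs in 35 fluconazole precursors and 442 UMIs in 66 vehicle precursors, a log2 ratio of -0.61 (-0.85 to -0.39). Egr1 had 204 and 378 UMIs (-0.66, -0.91 to -0.41), Jun 228 and 415 UMIs (-0.63, -0.87 to -0.40), and Jund 192 and 332 UMIs (-0.56, -0.82 to -0.30). Atf3, a stress-induced member, stood the other way at 0.75 (0.04 to 1.47).

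Without the set-apart barcodes the gap was wider. The sum was 3439 CPM in the fluconazole library and 7477 CPM in the vehicle library, a log2 ratio of -1.12, and 15 of 16 measured genes were lower, with a median of -1.08. Fos stood at 532 and 1460 CPM, Egr1 at 420.3 and 1140 CPM, and Jun at 595 and 1241 CPM. The set-apart barcodes alone went the other way, with 4506 CPM in the fluconazole library and 3116 CPM in the vehicle library. The median stayed negative, from -1.22 to -0.39, over all 13 settings tried, but these settings share barcodes and are not independent.

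The UMIs behind these sums lay in few barcodes. Of the immediate early UMIs in precursors without signs of another type, 69.7% of the fluconazole ones and 49.8% of the vehicle ones were in 5 barcodes. The median share of a barcode's UMIs from these genes was 0.139% in fluconazole precursors (quartiles 0.0928 and 0.259) and 0.170% in vehicle precursors (0.103 and 0.298), with overlapping quartiles. At least 20 such UMIs were found in 14 of 79 fluconazole and 18 of 117 vehicle precursors. In barcodes thinned to 1500 UMIs, Fos was found in 22 of 72 fluconazole and 41 of 104 vehicle precursors (30.6% and 39.4%), and Jun in 33 and 36 of them (45.8% and 34.6%). Ier2 had the widest gap of the 6 genes counted so, with 6.94% of fluconazole precursors (2.29 to 15.5) and 22.1% of vehicle precursors (14.6 to 31.3). The counting interval of the summed ratio is therefore too narrow for this list.

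Other classes of the same libraries showed the list at different offsets. Its summed log2 ratio was -1.01 in astrocytes, -0.60 in GABAergic neurons, -0.28 in glutamatergic neurons, -0.22 in mature oligodendrocytes, -0.05 in endothelial cells and 0.10 in microglia. Its level was 43116 and 40313 CPM in microglia, against 3888 and 5583 CPM in precursors. Whether RNA from other cells had a part in the gap was not tested.

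**Figure D4:**
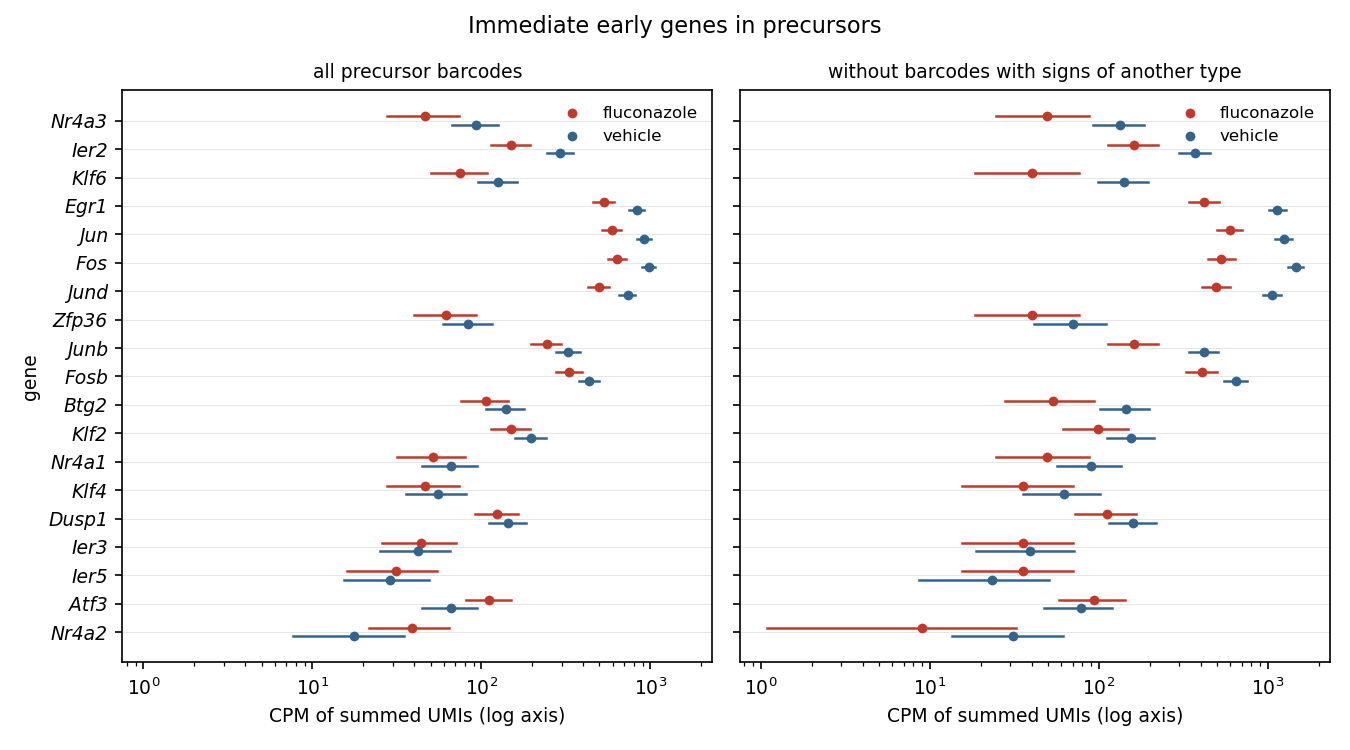
CPM of the 19 measured immediate early genes in precursors on a log axis, fluconazole above vehicle in each row, with exact Poisson intervals of the counts. On the left all precursors are shown, and on the right those without signs of another type, where Fos, Egr1, Jun, Jund and Junb lie lower in the fluconazole library with intervals that do not overlap. The intervals treat each UMI as an independent draw and are too narrow, since the UMIs lay in few barcodes.

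Heat shock and unfolded protein genes leaned the same way, with 13 of 18 measured, 3 higher, 10 lower, median -0.34 (-0.55 without the set-apart barcodes). Hsp90ab1, a chaperone gene, was at -0.54 (-0.89 to -0.19) with 110 and 187 UMIs, and Hspe1, a mitochondrial chaperonin gene, at -0.91 (-1.67 to -0.19). Hspb1 was at 0.90 (0.30 to 1.52), which turned to -1.39 without the set-apart barcodes. The summed list was also below 0 in the 6 other classes, from -0.61 in GABAergic neurons to -0.11 in microglia. Ribosomal protein genes were 81 of 84 measured, 15 higher, 66 lower, median -0.18, and 46 higher, 33 lower, median 0.06 without the set-apart barcodes. The median share of a barcode's UMIs from them in that set was 0.556% in fluconazole precursors and 0.638% in vehicle precursors. The list median was -0.85 with at most 1% mitochondrial UMIs, so its size and sign moved with the barcodes taken. Summed, the ribosomal list was at -0.19 in precursors, -0.68 in GABAergic neurons, -0.52 in astrocytes, -0.32 in glutamatergic neurons and -0.08 in mature oligodendrocytes. It was at 0.02 in microglia and 0.0089 in endothelial cells.

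Nuclear-retained RNAs, which rise where a barcode holds more nuclear than cytoplasmic RNA, were 8 higher and 1 lower of 9, median 0.23 (0.22 without the set-apart barcodes). Malat1 had 28148 CPM in fluconazole precursors and 26334 CPM in vehicle precursors, a log2 ratio of 0.10 (0.06 to 0.13) and 0.22 without. Meg3 was at 0.60 (0.44 to 0.76) and -0.19 without. These values moved opposite to the immediate early and heat shock lists, and their part in those results was not tested. Summed, the nuclear-retained list was at 0.13 in precursors, 0.43 in GABAergic neurons, 0.33 in astrocytes, 0.17 in glutamatergic neurons and 0.08 in endothelial cells. It was at -0.01 in mature oligodendrocytes and -0.03 in microglia.

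**Figure D5:**
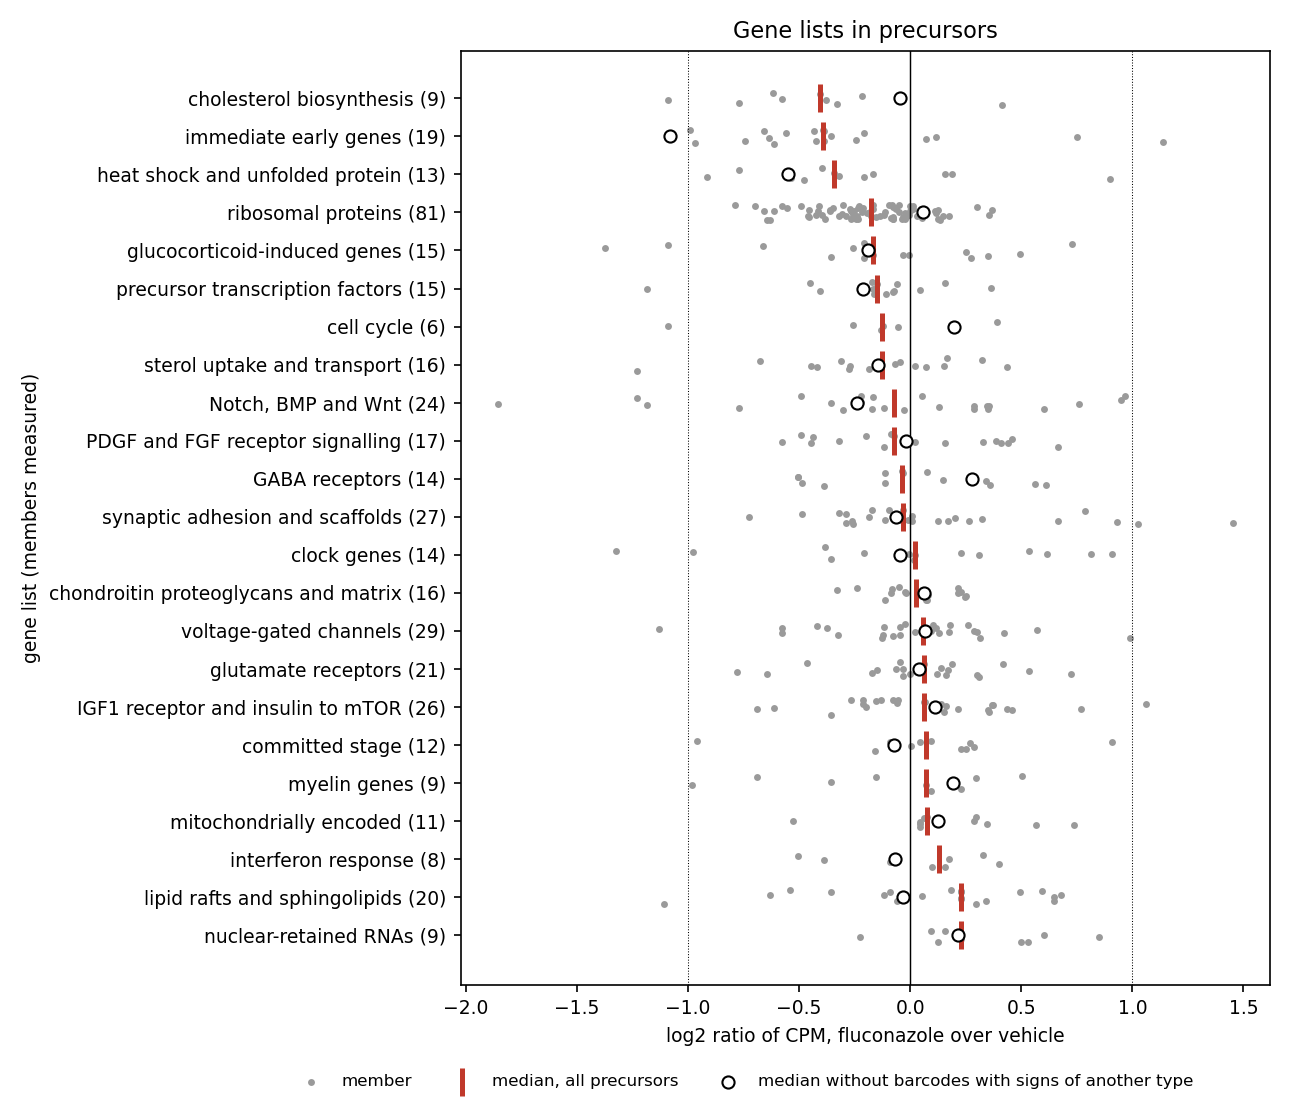
Rows are the 23 gene lists ordered by median, small points the log2 ratio of each member with at least 20 UMIs in precursors, fluconazole over vehicle, red bars the list medians and open circles the medians without barcodes with signs of another type. Cholesterol synthesis (-0.41) and immediate early genes (-0.39) are lowest with all barcodes, but without the set-apart barcodes the first is at -0.04 and the second at -1.08.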

How the data were processed

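The authors deposited UMI counts per gene and barcode: whole-number counts without normalization, in 1 matrix per library, for barcodes with at least 500 UMIs (per the file headers and values). The genome was mm10 per the submitters' processing notes, which also list R 4.0.3, Seurat 4.0.0 and Cell Ranger 9.0.0, while Cell Ranger 8.0.1 stands in the header of each matrix. Barcode calling and the counting of introns are not given in the sources used here. The fluconazole library held 12637 barcodes with 78380009 UMIs and the vehicle library 14924 barcodes with 76891692 UMIs, and 45 barcode sequences occurred in both.

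Kept barcodes numbered 11076 and 13465. Precursors and 6 other classes were chosen by marker rules, and the 5 fluconazole and 18 vehicle precursors that also met another class's rule stayed precursors only. UMIs were summed per class and library and scaled to 1000000 (CPM). Log2 ratios of fluconazole over vehicle have exact conditional binomial 95% intervals, shares Clopper-Pearson intervals, CPM Poisson intervals and the ratio of shares a log-scale interval. No test between treatments was made. Doublets were called with Scrublet in scanpy 1.11.5 (expected rate 8%) and left out only as an alternative. PCR duplicates are removed by UMIs, and intervals leave out differences between mice, dissections and barcodes.

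Named genes had at least 60 UMIs over both libraries, UMIs in at least 15 barcodes of the higher library and at most 20% of them in 1 barcode. The 12 highest and 12 lowest were taken, without rule genes, mitochondrial genes and gene models, of which at most 2 each way are named. From each list up to 4 members each way by size, or members of known role, are named. Some members are not reported here. The members, lists and rules were chosen with earlier results of these data known. The ratios and intervals were tested on simulated data, drawn as independent counts. The intervals assume the same, so that test checks the calculation only and not UMIs that cluster in few barcodes. Python 3.11.15, numpy 2.4.6, scipy 1.17.1, pandas 2.3.3 and matplotlib 3.10.9 were used.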

Additional observations from a re-analysis of the deposited data

How the results depend on the processing

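Depth limits which genes can be read: 386070 fluconazole and 452957 vehicle UMIs left 2917 genes at 60 UMIs. Treatment, mice and library cannot be told apart with 1 library each. No paired analysis was possible because each treatment has 1 library. Of 264 values of named genes under the alternatives, 249 stayed inside the gene's counting interval and 15 lay outside it, none with another direction. Of 298 list medians 263 stayed within the spread of the members around the median and 35 did not. Many medians near 0 changed sign, in 10 of 13 settings for myelin genes, 8 for GABA receptors and 7 for clock genes. The immediate early, heat shock, nuclear-retained, transcription factor and sterol uptake medians kept their sign in all 13. The ratio of the shares stayed below 1 under each alternative run on it.

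The precursor share was 1.28% (fluconazole) and 1.63% (vehicle) with at most 1% mitochondrial UMIs, 0.533% and 0.661% without the set-apart barcodes, 0.546% and 0.719% after thinning, 10.6% and 13.5% of the oligodendrocyte lineage, 3.21% and 4.15% of neural barcodes, and 0.676% in the vehicle library with at least 5 markers. Genes at least 2-fold apart numbered 82 with at most 1% mitochondrial UMIs, 19 without the set-apart barcodes, 12 after thinning, 80 with the mean of CPM per barcode, 210 at a minimum of 30 UMIs and 20 at 100 UMIs, against 50. The cholesterol median of -0.41 became -0.045 without the set-apart barcodes, -0.11 without barcodes with 3 or more committed genes, -1.05 after thinning and 0.00218 with the mean of CPM per barcode. The causes were not tested. The 15 values of named genes outside their intervals were as follows. Without barcodes with 3 or more committed genes Sncaip came to 0.18, Synrg to 0.13, Arap2 to -0.60, Sptlc2 to -1.97 and Tmem267 to -6.79. With at most 1% mitochondrial UMIs Hint1 came to -2.25, Sptlc2 to -2.23 and Clstn2 to -0.55. After thinning Ryk came to 2.46, Zzz3 to 2.18, Pcbp3 to 1.99, Rtl4 to -0.66 and Ggnbp2 to -2.41. Tmem267 came to -3.33 and Arap2 to -0.46 without the set-apart barcodes. The ribosomal median of -0.18 came to -0.80 without barcodes with 3 or more committed genes. The alternatives without the set-apart barcodes and with Pdgfra barcodes only were chosen after seeing the data.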

Other observations

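Other lists were read in the same precursors. Genes induced by glucocorticoids were 15 of 26 measured, 5 higher and 10 lower, with a median of -0.17 (-0.19 without the barcodes with signs of another type). Mt1 was the member with the widest gap, Fkbp5, a co-chaperone of the receptor, had 10 and 14 UMIs, and Nr3c1, the receptor gene itself, stood at 0.25 (-0.25 to 0.75). Clock genes were 14 of 20 measured, 8 higher and 6 lower, median 0.02 (-0.045 without those barcodes). Tef (-1.32) and Per3 (-0.98, with 13 and 30 UMIs) were lowest, while Hlf, a factor of the same family as Tef, stood at 0.91 (0.22 to 1.62) with 48 and 30 UMIs, and Rora, with 860 and 997 UMIs, at 0.02.

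Interferon response genes were 8 of 21 measured, 5 higher and 3 lower, median 0.13 (-0.07 without those barcodes), and every counting interval included 0. Mitochondrially encoded genes, which the barcode filter limits, were 11 of 13 measured, 10 higher and 1 lower, median 0.07 (0.13 without those barcodes). Mt-Nd1 was at 0.57 (0.28 to 0.86), while the 4 members with most UMIs, mt-Atp6, mt-Co3, mt-Co2 and mt-Co1, lay between 0.04 and 0.06. Adarb2, an RNA-editing family gene used here as a marker of GABAergic neurons, had 1570 and 1203 CPM in precursors and 1722 and 1627 CPM in those without signs of another type, beside 1 to 2 UMIs of Lhx6 and of Slc32a1.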
